A study of Homo sapiens with 6 samples.

Results

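The genes described here encode the enzymes that build cholesterol and fatty acids, and the proteins that control them. They are 26 of the 23368 genes in the table, chosen by name: 5 of the mevalonate branch, 10 of the squalene and sterol branch, 4 regulators or carriers and 7 of the fatty acid branch. All 26 were found, MSMO1 under its current symbol and SC5D under its older symbol SC5DL. RNA came from 1205Lu, an established line of metastatic human melanoma cells. Flasks received 7.8 µg of plasmid pCMV6-SOX10, which expresses the transcription factor SOX10 from the CMV promoter, or the same amount of the pCMV6 control plasmid, with FuGENE 6. Cells were lysed after 24 h, and each group had 3 biological replicates. The transfection was transient and no genetic change separates the groups. The labels do not state the share of cells that took up plasmid.

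Cholesterol is made from acetyl-CoA by way of mevalonate, farnesyl diphosphate, squalene and lanosterol. Fatty acids start from citrate, which is split into acetyl-CoA, carboxylated to malonyl-CoA and assembled by fatty acid synthase. Both routes are controlled by the sterol regulatory element binding proteins (SREBPs), membrane-bound transcription factors encoded by SREBF1 and SREBF2. When membrane cholesterol is low, an SREBP is carried to the Golgi, cleaved, and moves to the nucleus, where it binds sterol regulatory elements (SREs) next to sites of NF-Y and Sp1. When cholesterol is sufficient, INSIG proteins hold the SREBP in the endoplasmic reticulum. Most members are thus textbook targets of the same factors.

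Letters of these sites in the promoters of members are shown first, because the members were chosen by function and not by sequence. Promoter windows from 250 bases before to 50 bases after a gene's start were taken from RefSeq (GRCh38.p14). Windows matched 23 of the 26 members by symbol, with 32 windows in all. SQLE, FASN and FDFT1 had none. The stretches below hold the SRE letters TCACNCCAC, in full or with at most 1 other letter, within 50 bases of a CCAAT box, the site of NF-Y. They were picked after the search from the 7 members with such a pair, for a regulator, 2 mevalonate enzymes and a sterol enzyme. Capitals mark the SRE and CCAAT letters, or their reverse complement where the match is on the opposite strand.
SREBF2: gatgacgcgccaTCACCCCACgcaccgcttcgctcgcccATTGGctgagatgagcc
FDPS: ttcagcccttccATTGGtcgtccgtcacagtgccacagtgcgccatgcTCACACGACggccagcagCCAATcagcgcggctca
IDI1: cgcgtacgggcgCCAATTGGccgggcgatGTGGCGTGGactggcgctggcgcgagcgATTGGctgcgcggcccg
MSMO1: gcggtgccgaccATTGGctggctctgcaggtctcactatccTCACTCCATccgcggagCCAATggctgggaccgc
The stretch of SREBF2 lies at chr22:41832960-41833015 on the plus strand, that of FDPS at chr1:155308678-155308760 (plus), that of IDI1 at chr10:1048957-1049030 (minus) and that of MSMO1 at chr4:165327472-165327546 (plus). The SRE of SREBF2 begins 133 bases before the gene's start and is the only full match among the members. The other 3 differ from the SRE letters at 1 position.

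Full SRE letters on either strand were found in 1 of 32 member windows, against 1.13% of all 35114 windows of this length. With 1 other letter allowed, 15 of 32 member windows matched, which is 46.9%, against 24.5% of all windows. CCAAT stood in 23 of 32, or 71.9%, against 34.6% of all windows and 34.9% of the windows of tested genes. The GC box GGGCGG, a site of Sp1, stood in 28 of 32, or 87.5%, against 45% of all windows and 66.6% of those of tested genes. All 3 motifs were searched on both strands and counted separately, and their matches may overlap. CYP51A1, ELOVL6, FADS1 and SREBF1 had no CCAAT in the windows used. Windows of the same gene can overlap, and a match of letters is not a measured binding site.

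The libraries were shallow and unequal. Reads assigned to genes numbered 3732799, 2544420 and 4167393 in SOX10 replicates 1 to 3 and 925578, 867917 and 2066520 in control replicates 1 to 3. Levels are given as CPM, read counts relative to the library total after TMM scaling, and 1 read was worth 0.24 to 1.15 CPM. Per 100 assigned reads, SOX10 replicate 1 had 93.5 reads outside genes and control replicate 3 had 97.0, against 121 to 135 in the other 4 libraries, and these 2 libraries also stood apart in many of the results below. As a check of the labels, SOX10 reads gave a log2 fold change of 0.35 (SE 0.27, adjusted p = 0.927 by edgeR). SOX10 stood at 21.7, 18.7 and 34.6 CPM in the SOX10 libraries and at 16.6, 20.8 and 21.5 CPM in the controls. The groups overlapped, and the log2 fold change of SOX10 was 0.03 without SOX10 replicate 3. A rise of SOX10 RNA was thus not shown by these counts. PMP2, the gene named in the series' title, gave 3.99 (SE 0.49, adjusted p = 0.000103 by edgeR). The neural crest and melanoma markers summed to 805 to 913 CPM under SOX10 and 796 to 858 CPM under the control plasmid, with 5 of 8 tested. S100B and ERBB3 carried most of that sum. The pigment genes MLANA, TYR and DCT were too rare for a test, with at most 7 reads in any library. Summed markers of keratinocytes and epithelia reached at most 16.2 CPM, and those of leukocytes and endothelium at most 9.75 CPM. Those of adipocytes and hepatocytes, which make much fat and sterol, lay between 7.18 and 11.9 CPM in the SOX10 libraries and between 2.21 and 5.85 CPM in the controls, and all 6 of these genes were too rare for a test. The part of these markers in the results was not tested.

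No gene of sterol or fatty acid synthesis passed the test between SOX10 and control libraries. Of the 26 members 25 had enough reads for edgeR's quasi-likelihood test, 0 were called at an adjusted p under 0.05, and adjusted p-values ran from 0.801 to 0.998. Among all tested genes 12 of 10678 were called, or 0.112%. At an unadjusted p under 0.05 there was 1 member, CYP51A1, which was lower, against 6.23% of all tested genes (3.52% lower and 2.71% higher). DESeq2 and limma-voom also called 0 members, with 0 and 1 at an unadjusted p under 0.05. Log2 fold changes ran from -0.50 for MVD to 0.29 for ACACA, with a median of -0.046 against 0.008 over all tested genes. In 16 members the value was below 0 and in 9 above, against 48.7% below 0 over all genes. The median was 0.057 when control replicate 3 was left out, 0.025 for SOX10 replicate 3, -0.124 for control replicate 2 and -0.131 for SOX10 replicate 1. The 3 libraries of one group lay wholly above those of the other in 2 members, CYP51A1 and STARD4, against 11.8% of all tested genes. That count was 4 when control replicate 1 was left out, and the count at an unadjusted p under 0.05 was 0 when SOX10 replicate 2 or 3 or control replicate 1 was. The 12 calls over all genes were 6 in the fit that left out control replicate 1.

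The error of these values bounds what could have been missed. The median standard error of the members was 0.17 on the log2 scale, against 0.23 over all genes. For 16 of 25 members the 95% confidence interval of the change lay inside 1.5-fold in either direction, which held for 43.4% of all tested genes. For 22 of 25 it lay inside 2-fold, against 76.4% of all genes. The exceptions at 2-fold were MVK, MVD and NSDHL, each with group means of at most 14.4 CPM. Without control replicate 3 the count inside 1.5-fold was 8 and without SOX10 replicate 1 it was 10. The intervals of DESeq2 gave 11 of 26 and those of limma-voom 12 of 25. RNA of a flask is a mixture, so fewer responding cells and a smaller response per cell cannot be told apart.

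**Figure D1:**
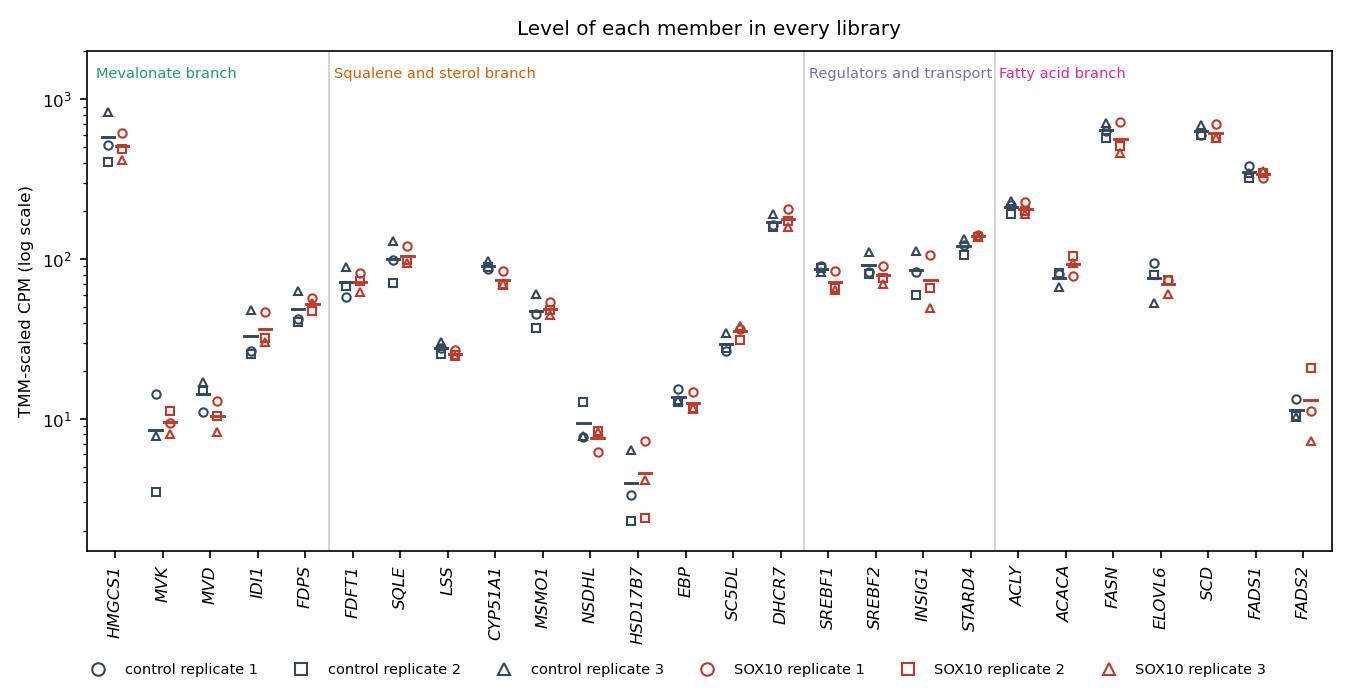
Level of all 26 members in each of the 6 libraries, in TMM-scaled CPM on a log axis, with control libraries in dark blue on the left and SOX10 libraries in red on the right of each gene. Short bars are group means; levels ran from about 4 CPM for HSD17B7 to over 500 CPM for HMGCS1, FASN and SCD, and the 2 groups overlapped in all tested members except CYP51A1 and STARD4.

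The mevalonate branch begins with HMGCS1, the cytosolic synthase that condenses acetyl-CoA with acetoacetyl-CoA. It was the most abundant member of the sterol route, at 617, 491 and 414 CPM in SOX10 replicates 1 to 3 and 514, 402 and 829 CPM in control replicates 1 to 3. Control replicate 3 stood above every other library and control replicate 2 below all, so all SOX10 values fell inside the range of control values. The log2 fold change was -0.22 (SE 0.17, adjusted p = 0.929), and it moved to 0.15 when control replicate 3 was left out and to -0.42 when control replicate 2 was. MVK, which phosphorylates mevalonate, was rare at 9.37, 11.2 and 7.99 CPM against 14.4, 3.46 and 7.80 CPM. Its control values rested on 13, 3 and 16 reads, and the groups overlapped.

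MVD, the decarboxylase that yields isopentenyl diphosphate, had the lowest log2 fold change of all members. It stood at 12.9, 10.4 and 8.24 CPM in the SOX10 libraries and at 11.1, 14.99 and 17.1 CPM in the controls. Control replicate 1 lay within the SOX10 range, and the log2 fold change of -0.50 (SE 0.32) had an adjusted p of 0.908. IDI1, the isomerase of isopentenyl diphosphate, stood at 46.9, 31.9 and 30.3 CPM against 26.5, 25.4 and 47.8 CPM, with a log2 fold change of 0.04 (SE 0.24). Its highest libraries were SOX10 replicate 1 and control replicate 3, which differed from each other by less than from the rest of their groups. FDPS, the farnesyl diphosphate synthase, had 0.06 (SE 0.18), at 52.3 ± 4.90 against 48.4 ± 12.6 CPM (SD, n = 3 each).

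Squalene and lanosterol are made by FDFT1, SQLE and LSS, which had log2 fold changes of -0.03 (SE 0.17), 0.03 (SE 0.17) and -0.13 (SE 0.21). SQLE, the epoxidase that is a rate-limiting step of the route, stood at 122, 98.1 and 94.5 CPM in the SOX10 libraries and at 98.4, 70.4 and 130 CPM in the controls. The fold change of SQLE was 1.02, with a 95% confidence interval from 0.80 to 1.29. CYP51A1, the demethylase of lanosterol, was the member with the smallest p. It stood at 84.1, 69.0 and 69.5 CPM against 86.2, 88.8 and 96.5 CPM, and the highest SOX10 library lay just under the lowest control. The log2 fold change was -0.30 (SE 0.14), with an unadjusted p of 0.0492 and an adjusted p of 0.801 by edgeR. Over the fits without any single library its value ran from -0.40 to -0.23. In GENCODE release 29, 83.2% of the exonic bases of CYP51A1 are shared with other annotated genes, 3.85% with genes on the opposite strand. The labels do not state how the annotation of the authors treated these bases, so the level of CYP51A1 is uncertain to that extent.

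The later sterol enzymes remove the methyl groups of lanosterol and shift its double bonds. MSMO1, the methyl sterol oxidase, had a log2 fold change of -0.01 (SE 0.19), at 53.8, 48.3 and 44.8 CPM against 45.3, 36.9 and 60.5 CPM. NSDHL, the decarboxylating dehydrogenase, and EBP, the sterol isomerase, were rare, at 7.59 ± 1.24 against 9.41 ± 2.84 CPM and 12.6 ± 1.81 against 13.8 ± 1.49 CPM (SD, n = 3 each). Their log2 fold changes were -0.27 (SE 0.39) and -0.11 (SE 0.30). HSD17B7, a sterol ketoreductase, was the member without enough reads for a test, with 27, 6 and 17 reads under SOX10 against 3, 2 and 13 under control. In CPM these were 7.23, 2.39 and 4.12 against 3.32, 2.31 and 6.34, so each group held low and high libraries. HSD17B7 also has a near-identical pseudogene, which makes its count uncertain.

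SC5DL, the sterol desaturase, had the second-highest log2 fold change of the members, at 36.7, 31.1 and 38.3 CPM against 26.5, 27.7 and 34.6 CPM. Control replicate 3 reached into the SOX10 range, and the log2 fold change was 0.22 (SE 0.21, adjusted p = 0.932). DHCR7, the reductase of the last step, was the most abundant gene of this branch. It stood at 205, 173 and 159 CPM against 164, 158 and 190 CPM, with a log2 fold change of 0.06 (SE 0.12). The interval of its fold change, 0.87 to 1.24, was the narrowest of the sterol branch on the log2 scale.

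**Figure D2:**
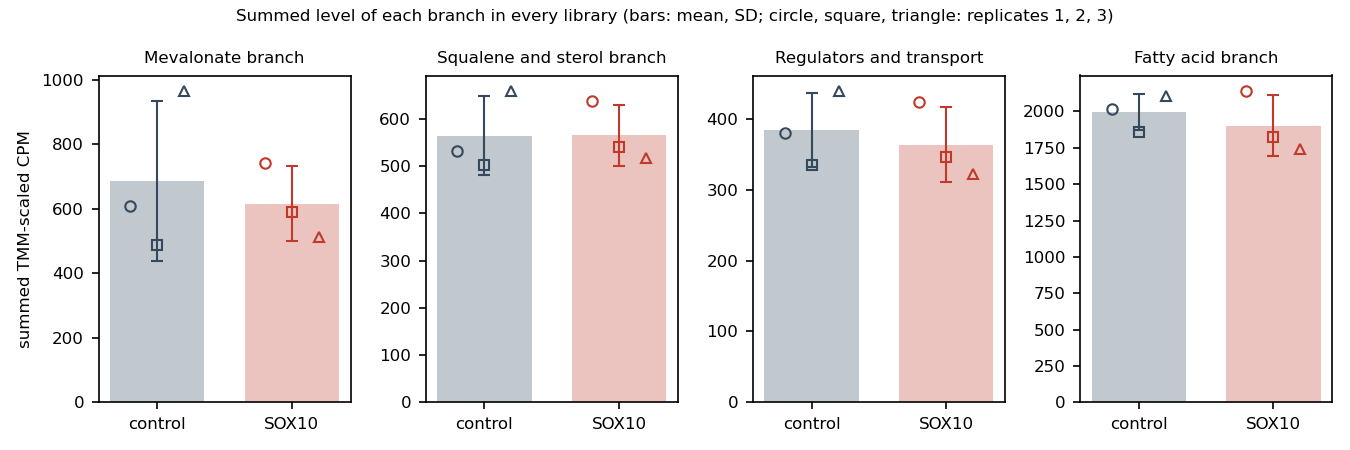
Summed TMM-scaled CPM of the members of each branch, for control (dark blue) and SOX10 (red) libraries. Bars are means with SD (n = 3) and markers are replicates 1, 2 and 3; control replicate 3 (triangle) and SOX10 replicate 1 (circle) were the highest of their group in all 4 panels, and the groups overlapped.

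Both SREBP genes were lower on average in the SOX10 libraries, and the groups overlapped in both. SREBF1, whose protein mainly drives fatty acid synthesis, stood at 84.1, 66.2 and 64.2 CPM against 90.7, 87.7 and 82.4 CPM. SOX10 replicate 1 lay above control replicate 3, while the other SOX10 libraries lay below every control. The log2 fold change was -0.27 (SE 0.15, adjusted p = 0.871), and it was -0.41 without SOX10 replicate 1, with an adjusted p of 0.485. SREBF2, whose protein mainly drives cholesterol synthesis and whose window held the full SRE shown above, stood at 90.8, 76.6 and 70.2 CPM against 82.9, 80.7 and 110 CPM. SREBF2 had a log2 fold change of -0.24 (SE 0.15, adjusted p = 0.899), and -0.045 without control replicate 3.

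INSIG1, the retention protein and a direct SREBP target, varied widely within both groups. It stood at 107, 65.8 and 49.2 CPM in the SOX10 libraries and at 82.9, 60.0 and 112 CPM in the controls. The log2 fold change of INSIG1 was -0.26 (SE 0.22, adjusted p = 0.929), and ran from -0.64 without SOX10 replicate 1 to 0.049 without control replicate 3. STARD4, a carrier of cholesterol between membranes, was higher in each SOX10 library than in any control. It stood at 142, 137 and 138 CPM against 123, 106 and 134 CPM, giving a log2 fold change of 0.18 (SE 0.12, adjusted p = 0.915). STARD4 thus went the other way from SREBF1, SREBF2 and INSIG1, and none of the 4 passed the test.

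In the fatty acid branch the largest value belonged to ACACA, the carboxylase that makes malonyl-CoA. ACACA stood at 78.7, 104 and 94.7 CPM in the SOX10 libraries and at 80.7, 81.9 and 67.3 CPM in the controls. SOX10 replicate 1 lay within the control range, and the log2 fold change was 0.29 (SE 0.15, adjusted p = 0.836). ACLY, which splits citrate in the cytosol, had -0.05 (SE 0.12), at 206 ± 18.9 against 212 ± 20.3 CPM (SD, n = 3 each). FASN, the synthase of palmitate, stood at 725, 510.1 and 463 CPM against 634, 576 and 706 CPM. SOX10 replicate 1 exceeded every control and the other 2 lay below every control. Its log2 fold change was -0.18 (SE 0.13, adjusted p = 0.919), and -0.40 with an adjusted p of 0.202 without SOX10 replicate 1.

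The elongase ELOVL6 and the desaturases SCD, FADS1 and FADS2 finish the chains. SCD, which makes oleate from stearate, stood at 703, 571 and 569.9 CPM against 599.2, 599 and 691 CPM. The fold change of SCD was 0.97 with a 95% confidence interval from 0.84 to 1.13, and FADS1, at 339 ± 17.3 against 350.4 ± 29.4 CPM (SD, n = 3 each), had 0.97 with an interval from 0.84 to 1.12. These were the narrowest intervals of all members. ELOVL6 had a log2 fold change of -0.07 (SE 0.18), at 74.4, 74.2 and 60.1 CPM against 94.0, 79.6 and 53.1 CPM, and was lowest in control replicate 3, where many sterol genes were highest. FADS2, the desaturase next to FADS1 in the genome, was far rarer at 11.3, 20.7 and 7.27 CPM against 13.3, 10.4 and 10.2 CPM. SOX10 replicates 2 and 3 were the highest and the lowest of the 6 libraries, and the log2 fold change of FADS2 was 0.18 (SE 0.39), which became -0.27 when SOX10 replicate 2 was left out and 0.49 when SOX10 replicate 3 was. The genes FADS1 and FADS2 share 4.79% and 4.44% of their exonic bases on opposite strands in GENCODE release 29. Among all members this opposite-strand share was largest for FDPS at 18.6%, HMGCS1 at 15% and IDI1 at 14.8%. No source used here states whether the counting used strand, so the counts of these genes are uncertain to that extent.

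**Figure D3:**
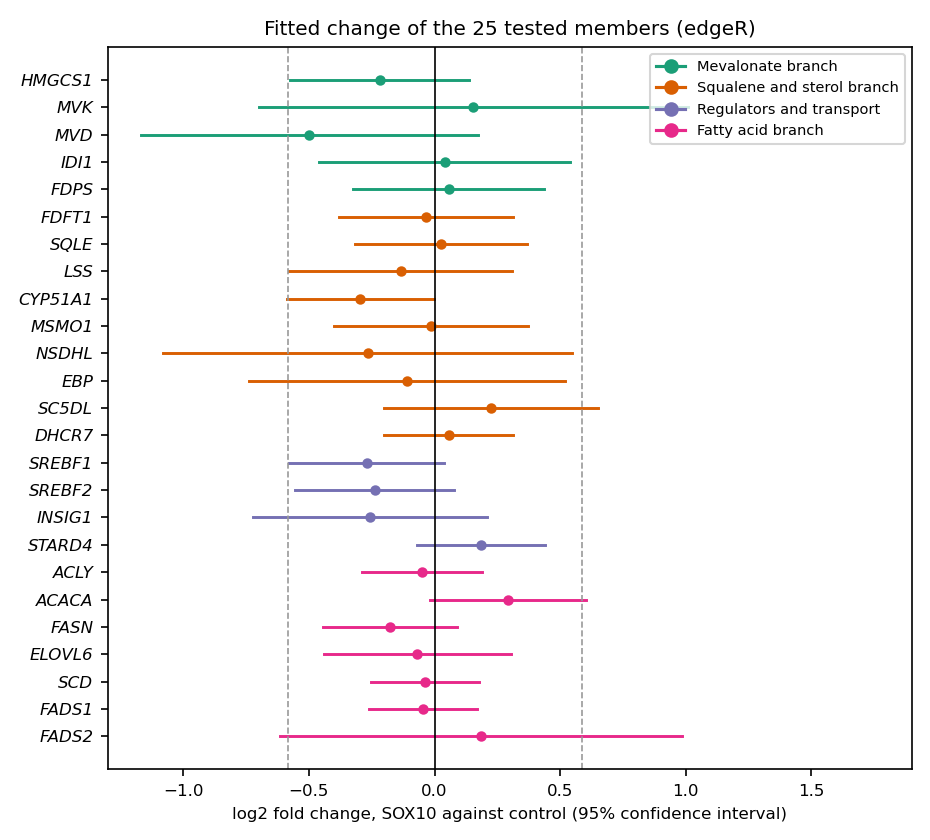
Fitted log2 fold change of the 25 tested members, SOX10 against control, with its 95% confidence interval; colours mark the branches, and the dashed lines stand at 1.5-fold lower and higher. The interval of CYP51A1 ends just under 0, those of the other 24 members include 0, and 16 of 25 lie between the dashed lines.

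Levels between genes can be compared only per length of transcript. Per kilobase of exon (the union of all exons in GENCODE release 29), HMGCS1 and SCD were the most abundant members in the controls, at 124 ± 47.0 and 117 ± 9.96 CPM per kb (SD, n = 3 each). These overlapped, and FASN came next at 68.2 ± 6.98 CPM per kb. DHCR7 at 41.0 ± 4.13, ACLY at 40.7 ± 3.88 and FADS1 at 34.2 ± 2.88 CPM per kb formed the next group, without a gap between DHCR7 and ACLY beyond their spread. The lowest were HSD17B7 at 0.83 ± 0.44, FADS2 at 1.02 ± 0.16 and MVK at 1.32 ± 0.85 CPM per kb. Union exons include rarely used isoforms, so levels per kilobase are understated for genes with long alternative exons.

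The clearest pattern of the members lay inside the groups, not between them. Control replicate 3 was the highest of the 3 controls in 17 of 25 tested members, against 32% of all tested genes. SOX10 replicate 1 was the highest of the 3 SOX10 libraries in 19 of 25, against 34.5%. Both held together for 16 members, against 14.3% of all tested genes. Among 40 tested pathway genes that are not members, control replicate 3 was the highest control in 22, above the 32% of all tested genes. SOX10 replicate 1 was the highest SOX10 library in 14 of these 40, near the share over all tested genes. Both held in 12 of the 40, above the 14.3% of all tested genes, so the pattern was not confined to the members. Relative to the mean of the other 2 controls, the median of the members in control replicate 3 was 0.22 higher on the log2 scale, against -0.004 over all tested genes. SOX10 replicate 1 stood 0.28 above the mean of the other 2 SOX10 libraries, against -0.006 over all tested genes. These shares and medians are descriptions of 2 libraries noticed in the data, with no test.

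Among tested members, the 2 highest values in control replicate 3 belonged to genes of the mevalonate branch, whose member MVK stood at -0.19. IDI1 was 0.88 higher and HMGCS1 0.85 higher in control replicate 3 on the log2 scale, followed by INSIG1 at 0.65, SQLE at 0.62 and FDPS at 0.61. Among tested members, the largest values in SOX10 replicate 1 were 0.89 for INSIG1, 0.59 for IDI1 and 0.58 for FASN. The fatty acid branch took less part in control replicate 3, where its median was -0.023 and ELOVL6 stood at -0.71. ACACA, FADS1, FADS2, NSDHL and MVK were below 0 in both libraries. ACACA stood at -0.27 and -0.34.

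Summed over the 5 mevalonate genes, control replicate 3 reached 964 CPM against 608 and 487 CPM in control replicates 1 and 2, a ratio of 1.76 to their mean. Without HMGCS1 the ratio was 1.52. The sterol branch summed to 659 CPM in control replicate 3 against 532 and 503 CPM, a ratio of 1.27, and the fatty acid branch to 2105 against 2019 and 1859 CPM, a ratio of 1.09. In SOX10 replicate 1 the ratios to the mean of the other 2 libraries were 1.34 for the mevalonate branch, 1.21 for the sterol branch, 1.27 for the regulators and 1.20 for the fatty acid branch. The median coefficient of variation of the members was 15.1% in the controls and 13.4% in the SOX10 libraries, against 17.8% and 14.01% over all tested genes. For the mevalonate branch it was 38.0% in the controls and 20.2% in the SOX10 libraries.

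**Figure D4:**
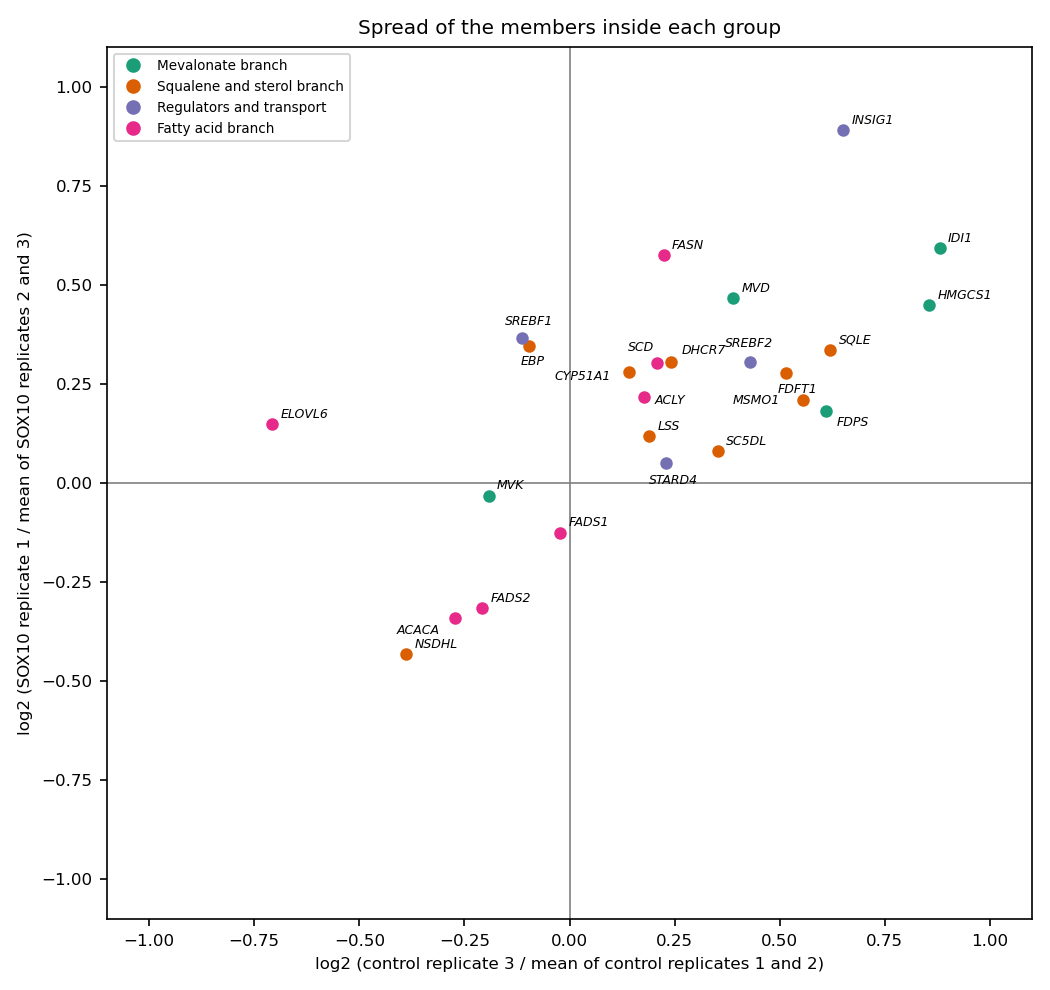
For each of the 25 tested members, the log2 ratio of control replicate 3 to the mean of control replicates 1 and 2 (horizontal) and of SOX10 replicate 1 to the mean of SOX10 replicates 2 and 3 (vertical), coloured by branch. Most points lie in the upper right, with INSIG1, IDI1 and HMGCS1 farthest out, while ACACA, FADS2 and NSDHL lie in the lower left.

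The same 2 libraries had the fewest reads outside genes, at 97.0 and 93.5 per 100 assigned reads, and control replicate 3 was the deepest control. The part of these differences in the pattern was not tested. After thinning all libraries to 867917 reads, control replicate 3 was the highest control in 18 and SOX10 replicate 1 the highest SOX10 library in 15 of 23 tested members. Both held for 13 of these 23, against 13.7% of all genes then tested. With TMM replaced by 3 other scalings, both held for 16 of 25 members each time.

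The counts between groups differed when either of these libraries was left out. These libraries were the ones in which most members were highest in their group. Leaving them out narrows the spread of those members by construction. The counts and shares that follow are therefore descriptions and no support for a difference between the groups. Without SOX10 replicate 1, 7 members had an unadjusted p under 0.05, namely CYP51A1, FASN, HMGCS1, INSIG1, SREBF1 and SREBF2 with negative and ACACA with positive log2 fold changes, against 7.52% of all genes in that fit. The groups were then apart in 10 members, against 21.6% of all genes. Without control replicate 3, 0 members had an unadjusted p under 0.05, against 6.14%, and the groups were apart in 7, against 25.1%. Without both libraries the groups were apart in 14 of 25 members, 9 lower and 5 higher in SOX10, against 36.3% of all genes. In that fit 2 members, FASN and SREBF1, had an unadjusted p under 0.05, against 6.3%. When the ratio of outside reads was entered as covariate there were again 7 such members, the same genes as without SOX10 replicate 1, against 8.07%. No member was called at an adjusted p under 0.05 in any of these fits, and the smallest was 0.185, for HMGCS1 with the covariate.

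Other genes of the pathway, from a list that leaves out the members, gave the same count. Of 45 such genes 40 were tested, 0 were called and 0 reached an unadjusted p under 0.05. Their median log2 fold change was 0.039. DESeq2 and limma-voom also called 0 of them. In the sterol list 8 of 9 tested genes were above 0, from -0.09 (SE 0.19) for ACAT2, which makes acetoacetyl-CoA, to 0.55 (SE 0.49) for TM7SF2, a sterol reductase. Of the 4 genes that escort, cleave or retain SREBPs, SCAP had 0.00 (SE 0.26), MBTPS1 0.18 (SE 0.17), MBTPS2 0.22 (SE 0.16) and INSIG2 -0.41 (SE 0.32). The highest and lowest of all 40 were in the fatty acid list. ELOVL4, an elongase of very long chains, had 0.55 (SE 0.39, adjusted p = 0.915) on 53, 22 and 35 reads against 7, 4 and 17. SLC25A1, the carrier that exports citrate from mitochondria, had -0.47 (SE 0.33, adjusted p = 0.915) on 75, 23 and 39 reads against 17, 13 and 40. When SOX10 replicate 1 was left out, the value of SLC25A1 was -0.95 and that of ELOVL4 0.26, and SLC25A1 had -0.26 when SOX10 replicate 3 was.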

How the data were processed

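The authors deposited raw counts of reads as whole numbers, 1 row per gene symbol and 1 column per library. Per the submitters' processing notes, TopHat 1.4.0, HTSeq, DESeq and the build hg19 were used. The annotation, strand setting and overlap mode are not stated in the labels or the table. Per the labels' protocols, libraries were made from 125 ng of total RNA. The 5 read classes that name no gene were left out. They held 39.4% to 46.9% (outside genes), 17.7% to 19.1% (not unique) and 0.435% to 0.551% (ambiguous) of all records.

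The main test was edgeR 4.0.16 (quasi-likelihood, R 4.3.3) on all 6 libraries with TMM, filterByExpr (minimum count 10, minimum total 15), no covariate and Benjamini-Hochberg adjustment over 10678 genes. Standard errors and 95% intervals come from the F statistic. The script was tested on simulated data. Alternatives were other scalings and filters, DESeq2 1.42.0, limma-voom (limma 3.58.1), the replicate number as a block, thinning, a covariate, and leaving out libraries. Replicates differed beyond the noise of sampling (chi-square per degree of freedom 1.94 to 7.44). A count of 0 allows up to 3 reads, 0.72 to 3.46 CPM, for counting error only.

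The members, lists and alternatives were chosen with earlier results of these data known. Values in every library are given for the 3 members with the highest and the 3 with the lowest log2 fold change, those with an unadjusted p under 0.05, the most abundant of each branch, the SREBP genes and the untested member. Those of MVK, IDI1, SQLE, MSMO1, INSIG1, FASN and ELOVL6 were added after the values were seen, as were the neighbours outside the rule for named genes. The reference is of another build than hg19, so only lengths, shared exonic bases and RefSeq promoter windows were used from it.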

Additional observations from a re-analysis of the deposited data

How the results depend on the processing

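Members called at an adjusted p under 0.05 numbered 0 in the main fit and in each of the 17 alternatives, and pathway neighbours called were 0 in all of them. The 12 calls over all genes became 48 with no low-count filter, 43 with reads outside genes as a covariate, 7 without SOX10 replicate 1 and control replicate 3 together, and 6 to 18 without any single library. The 1 member at an unadjusted p under 0.05 became 0 with library totals only, with the filter of 1 CPM in 3 libraries, with DESeq2 and after thinning, 2 without both libraries, 7 with the covariate and 0 to 7 without any single library. That member was CYP51A1 in the main fit but ACACA, with a positive log2 fold change, under upper quartile scaling and with no low-count filter, and HMGCS1, with a negative one, without control replicate 2. The 16 members with an interval inside 1.5-fold became 10 without both libraries and 8 to 16 without any single library. They were 11 of 26 with DESeq2, 12 of 25 with limma-voom and 12 of 25 with the replicate block. With upper quartile scaling they were 17 of 25, and with no low-count filter 18 of 26. The 2 members with groups apart became 14 without both libraries, 1 after thinning and 2 to 10 without any single library. The median log2 fold change of the members ran from -0.131 to 0.057, and 0 to 6 members changed sign in an alternative, the most without control replicate 3. The cause of these moves was not tested.

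The replicate number as a block gave 7 calls over all genes, 0 members called and 0 members at an unadjusted p under 0.05. Deviations of same-numbered libraries from their group means had correlations across genes of -0.03, -0.033 and -0.14. The largest value, 0.151, was that of SOX10 replicate 1 with control replicate 3. With so few libraries these values cannot show whether same-numbered libraries were handled as pairs. The intervals of 9 tested members reached past 1.5-fold, those of the rare MVK, MVD, NSDHL, EBP and FADS2 and those of SC5DL, CYP51A1, INSIG1 and ACACA. Depth left HSD17B7 without a test.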

Other observations

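Genes that move, store or export sterols were read out of the same fit, although they belong to no member list. Of 11 such genes 8 had enough reads, 0 were called by edgeR, DESeq2 or limma-voom, and 0 had an unadjusted p under 0.05 by edgeR. In 6 of the 8 the log2 fold change was below 0, with a list median of -0.14. ABCA1, which exports cholesterol and is induced by the oxysterol receptors, came nearest to the threshold. It stood at 26.7 ± 4.16 against 38.0 ± 11.3 CPM (SD, n = 3 each), and its log2 fold change of -0.47 (SE 0.23) had an unadjusted p of 0.0545 and an adjusted p of 0.817 by edgeR. Over the fits without any single library the value of ABCA1 ran from -0.66 to -0.22. NPC2, a cholesterol carrier of the lysosome, was abundant at 835 ± 53.9 against 747 ± 131 CPM and had 0.16 (SE 0.11). SOAT1, which esterifies cholesterol for storage, had -0.03 (SE 0.12), and the lipid droplet protein PLIN2 had -0.19 (SE 0.22). ABCG1, NR1H3 and CH25H were too rare for a test. In control replicates 1 to 3 ABCA1 stood at 50.9, 33.4 and 29.7 CPM. Against the mean of the other controls, control replicate 3 had a log2 ratio of -0.50, which rested mostly on control replicate 1. Most genes of sterol synthesis were at their highest among controls in control replicate 3. That contrast was noticed after the values were seen and has no test. In SOX10 replicate 1 the same ratio was 0.34, so the contrast was not seen there.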
